A study of Mus musculus with 9 samples.

Results

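The genes described here carry names of ciliary transport, axonemal and RFX gene families. They were picked by a rule on names, set with earlier results of these data known. It takes every gene whose symbol begins with Ift, Bbs, Dnah, Dnai, Dnaaf, Rsph or Spag followed by a number, or Rfx followed by a number from 1 to 8. The rule found 68 of the 32137 genes in the count files. Of these, 22 encode subunits of the intraflagellar transport (IFT) trains or BBS proteins, which primary cilia use, and 31 encode parts or assembly factors of the motile axoneme. The others were 8 RFX transcription factors, 4 SPAG genes whose products lie outside the axoneme and 3 antisense-named RNAs (Ift88os, Dnah2os and Spag17os).

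All 9 RNA libraries came from bile duct organoids of 1 male mouse of mixed genetic background with the genotype Axin2CreERT2+/-; R26-LSL-tdTom+/-. In this genotype a tamoxifen-inducible Cre is made where the Wnt target gene Axin2 is active, and Cre switches on the red reporter tdTomato. Expansion lasted 2 to 4 days and differentiation 11 days. Dexamethasone (3 uM) and 4-hydroxytamoxifen (500 nM) were present in the last 24 h in every group. The untreated group received no R-spondin 1 (Rspo1), a secreted enhancer of Wnt signalling, and its tdTomato-negative cells were sorted. Organoids given Rspo1 at 100 ng/ml in those 24 h were sorted into tdTomato-negative and tdTomato-positive cells. Each of the 3 groups has 1 library from passage 5, 1 from passage 6 and 1 from passage 10. All cultures trace to 1 animal, so p-values between groups measure the spread between these cultures and not between animals.

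A primary cilium is a single, mostly immotile antenna that a cell builds on its mother centriole. Bile duct cells carry one on the side facing the bile, where it senses flow and solutes. IFT-B complexes, driven by kinesin-II, carry cargo to the tip, IFT-A complexes and dynein-2 bring it back, and the BBSome moves membrane proteins along the same trains. Motile cilia add outer and inner dynein arms, radial spokes and a central pair of microtubules, and their genes are commonly driven by FOXJ1 together with RFX factors.

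The libraries held between 23423979 and 37351448 counts. Duct keratins were abundant in all of them (Krt19, 842 to 2164 deposited FPKM), and 4 of the 16 markers of multiciliated cells that could be looked up (Deup1, Fam183b, Trp73 and Ccdc153) had at most 2 counts in any library. The 16 together summed to 76.4 to 211.7 CPM (counts scaled to library size) in untreated, 58.2 to 136.7 in Rspo1 tdTomato-negative and 45.1 to 111.0 in Rspo1 tdTomato-positive libraries, most of it Foxj1. Of the 16, 9 passed the filter on low counts. Mesenchymal markers summed to between 0.435 and 1.89 CPM in each library and immune and endothelial markers to between 45.9 and 68.3. Hepatocyte markers summed to between 330.2 and 729.2 CPM, mostly Ttr and Hnf4a, while Cyp2e1 and Cps1 had at most 7 and 1 counts in any library. Mean levels were 287.3 FPKM for the epithelial marker Epcam and 4.73 for the hepatocyte product Alb. The proliferation marker Mki67 was at 1.84 ± 0.778, 2.47 ± 1.34 and 21.5 ± 6.68 FPKM in untreated, Rspo1 tdTomato-negative and Rspo1 tdTomato-positive cells (mean ± SD, n = 3 each), and this difference runs alongside every comparison of the tdTomato-positive group below. Axin2 itself was higher in both Rspo1 groups (20.9 ± 9.27 and 24.5 ± 9.37 FPKM) than in untreated cells (0.694 ± 0.591), so Axin2 RNA was abundant in the tdTomato-negative population too.

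The primary-cilium genes were expressed in every library, and most of the motile dyneins were not. All 22 IFT and BBS genes passed the filter on low counts, with mean levels over the 9 libraries from 0.824 to 29.4 FPKM (median 5.79), and 21 of them lay above 1 FPKM. FPKM is the deposited count scaled by gene length and by a size factor of the library, so levels can be compared between genes. Of the 31 motile-axoneme genes, 21 passed the filter, the median was 0.352 FPKM and 10 lay above 1 FPKM. In total 54 of the 68 members passed and entered the tests. The 14 that did not were Dnah1, Dnah3, Dnah5, Dnah6, Dnah8, Dnah9, Dnah10, Dnah12, Spag16, Rsph6a, Rfx4, Rfx6, Rfx8 and Spag17os.

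**Figure D1:**
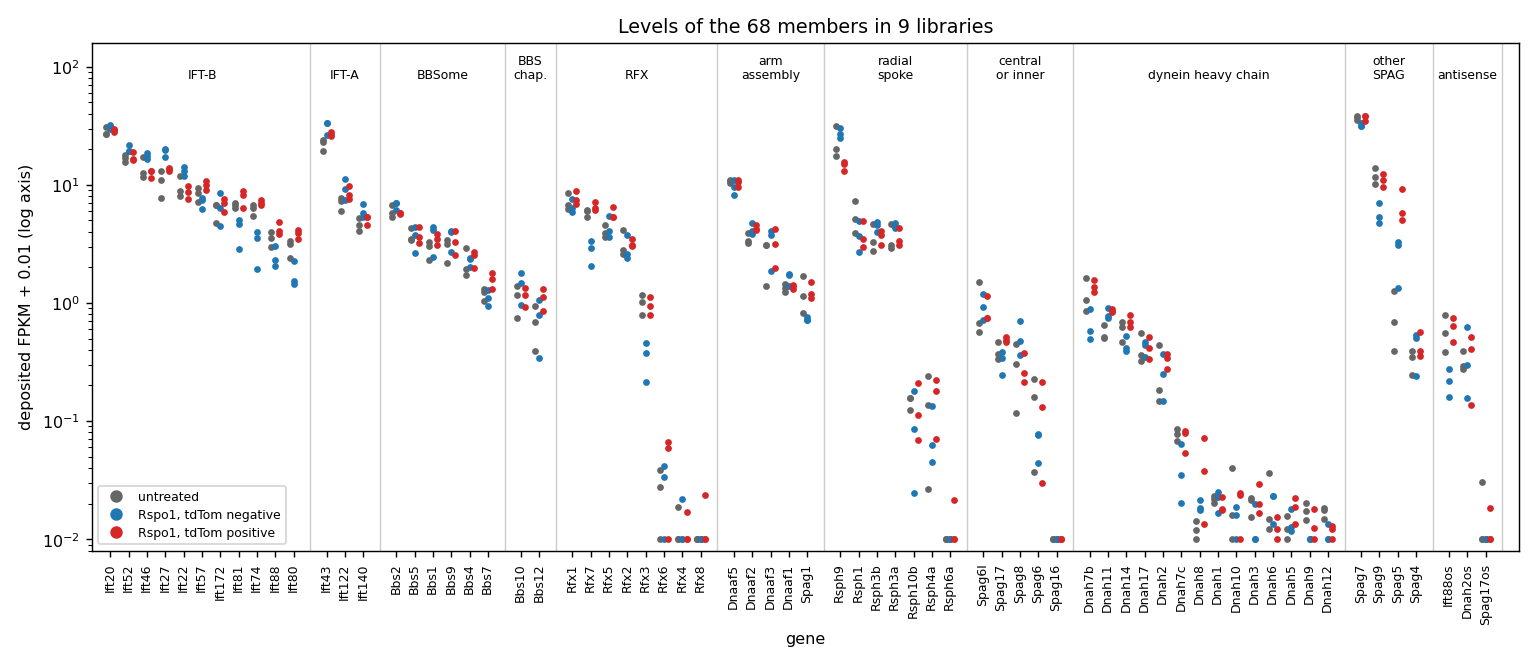
Deposited FPKM plus 0.01 on a log axis for each of the 68 members, grouped by complex, with 1 point per library and colours for the 3 groups. IFT and BBS genes lie between 0.329 and 33.5 FPKM in the 9 libraries, whereas 8 of 14 dynein heavy chains lie near the lower edge.

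Among the IFT-B genes, the small peripheral subunit Ift20, which also links the Golgi to the cilium, was the highest. It was at 30.7, 26.8 and 26.7 FPKM in untreated cells of passages 5, 6 and 10, at 32.3, 29.6 and 31.5 in Rspo1 tdTomato-negative cells and at 28.9, 28.2 and 30.0 in Rspo1 tdTomato-positive cells. The core subunit Ift52 was at 15.6, 17.0 and 17.8 FPKM, then 19.3, 19.2 and 21.9, then 16.3, 16.5 and 19.0, in the same order of groups and passages. Its partner Ift46 was at 11.6, 17.2 and 12.7, at 17.6, 16.4 and 18.5, and at 11.3, 13.1 and 13.2 FPKM. These 3 genes did not pass the edgeR test between groups in the fit without passage. With passage as a block, Ift46 was lower in tdTomato-positive than in tdTomato-negative Rspo1 cells by 0.46 on the log2 scale (edgeR adjusted p = 0.0227).

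The IFT-A gene with the highest level was Ift43, at 19.5, 23.9 and 22.9 FPKM in untreated cells, 33.1, 26.4 and 33.5 in Rspo1 tdTomato-negative cells and 26.1, 28.3 and 26.8 in Rspo1 tdTomato-positive cells. Ift122, a core IFT-A subunit, was at 5.95, 7.73 and 7.26 FPKM, then 7.49, 11.3 and 9.14, then 8.27, 9.80 and 7.54. Ift140, another core subunit, was at 4.03, 5.19 and 4.52, then 5.33, 6.85 and 5.80, then 5.31, 5.37 and 4.56 FPKM. The mean of the Rspo1 tdTomato-negative libraries was the highest of the 3 groups for all 3 IFT-A genes. Against untreated cells the edgeR adjusted p was 0.0523 for Ift43, 0.156 for Ift122 and 0.114 for Ift140, and with passage as a block it was 0.0264, 0.0392 and 0.042. With an offset for transcript GC content and length added to the block, Ift140 was at 0.49 (edgeR adjusted p = 0.00689), while Ift43 at 0.04 (0.829) and Ift122 at 0.23 (0.131) were not called.

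BBSome genes had a median of 3.29 FPKM, beside 8.46 for the IFT-B genes. Bbs2, a core subunit, was at 5.30, 5.76 and 6.77 FPKM in untreated, 6.09, 7.01 and 6.99 in Rspo1 tdTomato-negative and 5.65, 5.74 and 5.73 in Rspo1 tdTomato-positive cells. Bbs5, which binds membrane lipids, was at 3.50, 4.30 and 3.43, then 4.42, 2.66 and 3.76, then 3.21, 3.60 and 4.42 FPKM. Bbs1, through which the BBSome docks on ARL6, was at 2.29, 3.26 and 3.05, then 2.44, 4.37 and 4.11, then 3.09, 3.79 and 3.50 FPKM. The groups overlapped for Bbs5 and Bbs1. For Bbs2 the 2 Rspo1 populations did not overlap, with all tdTomato-positive libraries below the tdTomato-negative ones. The chaperonin-like genes Bbs10 and Bbs12, whose products help to assemble the BBSome, had means of 1.21 and 0.824 FPKM. Bbs10 was at 1.39, 1.16 and 0.743 FPKM in untreated, 1.78, 1.47 and 0.953 in Rspo1 tdTomato-negative and 1.16, 1.33 and 0.909 in Rspo1 tdTomato-positive cells, lowest at passage 10 in each group. None of the 8 BBS members was called in any of the 3 group comparisons with edgeR or with DESeq2. In edgeR 1 had an unadjusted p under 0.05, between the 2 Rspo1 populations, where 6416 of all 17011 genes had one. With passage as a block, Bbs12 was called there (0.73, edgeR adjusted p = 0.0444).

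The motile-axoneme members fell into a group with clear expression and a group near 0. Rsph9, a radial spoke head protein, had a mean of 21.7 FPKM, and Dnaaf5, a cytoplasmic assembly factor of dynein arms, was at 10.7, 11.0 and 10.3 FPKM in untreated, 8.25, 11.0 and 9.61 in Rspo1 tdTomato-negative and 10.5, 11.1 and 9.60 in Rspo1 tdTomato-positive cells. Dnaaf2, another assembly factor, was at 3.89, 3.24 and 3.31, then 4.05, 3.81 and 4.71, then 4.20, 4.60 and 4.17 FPKM. These are assembly and spoke genes rather than motors. Rsph3b, a spoke stalk protein with a near-identical copy in Rsph3a, was at 2.74, 4.66 and 3.25, then 4.01, 4.54 and 4.80, then 3.10, 4.05 and 3.75 FPKM. The Dnaaf2 value has a limit: 71.4% of its exon bases lie within 9330151L19Rik on the other strand, and the strand setting of the counting is not given in the sources used here.

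The dynein heavy chains are the motors of the axoneme. Dnah5 and Dnah9, the outer-arm chains of airway cilia, had at most 8 and 5 counts in any library, and Dnah1, Dnah3, Dnah6, Dnah10 and Dnah12, inner-arm chains, had at most 7, 7, 10, 14 and 3. The 5 heavy chains with the highest mean FPKM were Dnah7b (1.07), Dnah11 (0.731), Dnah14 (0.571), Dnah17 (0.407) and Dnah2 (0.271). Dnah7b and Dnah7c are near-identical copies, so the split of reads between them is uncertain. Among central-apparatus and inner-microtubule genes, Spag16 had 0 counts in all 9 libraries, which allows up to 3 counts per library for counting error. Spag6l was at 0.553, 1.51 and 0.667 FPKM in untreated, 0.705, 1.17 and 0.906 in Rspo1 tdTomato-negative and 0.737, 1.14 and 0.742 in Rspo1 tdTomato-positive cells. Spag17 was at 0.328, 0.359 and 0.460, then 0.374, 0.334 and 0.236, then 0.456, 0.471 and 0.508 FPKM, and the groups overlapped for Spag6l. Spag8 was at 0.294, 0.106 and 0.438, then 0.355, 0.690 and 0.462, then 0.205, 0.369 and 0.245 FPKM. Foxj1 was present all the same, with 837 to 5448 counts and a mean of 32.2 FPKM, a level above that of every motile-axoneme member.

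RFX factors bind the X-box promoters of ciliary genes. Rfx1 was at 6.78, 6.28 and 8.59 FPKM in untreated, 5.83, 7.57 and 6.36 in Rspo1 tdTomato-negative and 6.89, 8.94 and 7.50 in Rspo1 tdTomato-positive cells. Rfx5, the regulator of MHC class II promoters, was at 3.60, 3.92 and 4.60, then 3.63, 5.41 and 4.04, then 5.29, 6.52 and 5.30 FPKM. Rfx2, a regulator of motile-cilium genes, was at 2.60, 2.78 and 4.17, then 2.57, 2.41 and 3.75, then 3.10, 3.01 and 3.45 FPKM. Rfx2 was highest at passage 10 within each group, and its edgeR adjusted p was 0.0617 from passage 5 to 10 and 0.0657 from passage 6 to 10. Among the SPAG genes outside the axoneme, Spag7 had the highest mean of all 68 members, at 37.3, 35.3 and 38.4 FPKM in untreated, 33.6, 31.4 and 31.7 in Rspo1 tdTomato-negative and 38.2, 35.0 and 38.2 in Rspo1 tdTomato-positive cells. Rfx4, Rfx6 and Rfx8 had at most 8 counts in any library. For Rfx5, 26.8% of the exon bases overlap B230398E01Rik on the other strand.

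The promoters of the members show where this regulation could act, so 4 of them with a match and 1 without are printed. RefSeq promoters of GRCm38.p6, each from 250 bases before to 50 bases after a transcription start, were found for 56 of the 68 members (58 promoters). The X-box consensus was searched on both strands by name, and 5 members held a match: Bbs1, Dnaaf2, Ift57, Rsph3b and Spag16. That is 8.62% of the member promoters, beside 1.53% of all 32851 promoters of the same length. The shorter core GTTGCC, contained in part of the X-box matches, was in 37.9% of the member promoters and in 12.5% of all promoters. A match describes letters and not a bound site. The sequences read 5′ to 3′ on the strand of the gene, with the X-box match in capitals.
Ift57: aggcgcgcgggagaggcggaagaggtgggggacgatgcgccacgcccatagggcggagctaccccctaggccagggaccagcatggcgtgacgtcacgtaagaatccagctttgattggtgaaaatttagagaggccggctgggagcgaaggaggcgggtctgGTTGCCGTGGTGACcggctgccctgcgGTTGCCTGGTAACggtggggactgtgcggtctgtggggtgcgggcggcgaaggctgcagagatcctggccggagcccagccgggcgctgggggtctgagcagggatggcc
Bbs1: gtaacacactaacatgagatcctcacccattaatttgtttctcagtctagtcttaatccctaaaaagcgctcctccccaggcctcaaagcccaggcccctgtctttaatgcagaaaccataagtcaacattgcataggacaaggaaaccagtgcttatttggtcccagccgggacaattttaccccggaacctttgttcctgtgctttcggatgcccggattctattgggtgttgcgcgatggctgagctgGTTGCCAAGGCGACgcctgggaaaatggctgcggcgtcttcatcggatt
Dnaaf2: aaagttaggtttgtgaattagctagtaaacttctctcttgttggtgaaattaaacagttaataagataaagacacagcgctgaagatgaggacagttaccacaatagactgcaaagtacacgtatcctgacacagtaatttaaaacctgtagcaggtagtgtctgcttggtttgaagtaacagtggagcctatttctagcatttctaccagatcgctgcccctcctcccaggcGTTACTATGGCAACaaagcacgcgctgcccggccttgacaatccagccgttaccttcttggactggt
Spag16: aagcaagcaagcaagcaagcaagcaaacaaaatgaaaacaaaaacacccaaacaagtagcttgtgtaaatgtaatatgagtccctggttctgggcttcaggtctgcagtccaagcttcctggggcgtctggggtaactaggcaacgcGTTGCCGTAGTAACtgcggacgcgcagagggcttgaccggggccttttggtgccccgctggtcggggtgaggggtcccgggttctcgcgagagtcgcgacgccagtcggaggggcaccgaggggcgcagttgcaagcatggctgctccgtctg
Ift74: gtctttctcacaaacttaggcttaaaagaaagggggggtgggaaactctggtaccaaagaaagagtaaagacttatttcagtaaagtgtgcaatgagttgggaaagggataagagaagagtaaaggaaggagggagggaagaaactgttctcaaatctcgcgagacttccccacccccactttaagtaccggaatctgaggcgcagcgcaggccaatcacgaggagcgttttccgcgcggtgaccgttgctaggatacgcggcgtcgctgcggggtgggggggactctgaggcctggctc
The Ift57 promoter is chr16:49699044-49699343 (plus strand) and holds 2 matches, 87 and 60 bases before the start. The Bbs1 promoter is chr19:4906578-4906877 (minus strand), with its match just after the start. The Dnaaf2 promoter is chr12:69198380-69198679 (minus strand), with a match 17 bases before the start. The Spag16 promoter is chr1:69826720-69827019 (plus strand), with a match 103 bases before the start, in a gene with 0 counts in these cells. The Ift74 promoter is chr4:94614241-94614540 (plus strand), and the X-box consensus has no match in its window. Ift57 was among the genes that differed between the Rspo1 populations, as was Ift74, whereas Bbs1 and Dnaaf2 were not called.

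Rspo1 tdTomato-positive cells differed from untreated cells in 1 of the 54 tested members (1.85%), beside 5.21% of all 17011 genes tested (3.07% higher and 2.13% lower). That gene was Spag5 (chr11:78301529-78322457, GRCm38), which encodes astrin, a protein of the mitotic spindle and not of the cilium. Spag5 was at 0.383, 1.25 and 0.677 FPKM in untreated cells, 1.32, 3.27 and 3.08 in Rspo1 tdTomato-negative cells and 5.06, 9.16 and 5.76 in Rspo1 tdTomato-positive cells. The untreated and Rspo1 tdTomato-positive libraries did not overlap, and the difference was 3.11 on the log2 scale (SE 0.47, edgeR adjusted p = 0.00378), held in 6 of 6 fits that left out 1 library. Proliferation genes moved with it: 20 of 20 were higher, with a median log2 difference of 2.87.

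The ciliary members themselves showed no called difference in this comparison. The 22 IFT and BBS genes had a median log2 difference of 0.18, beside -0.01 over all genes tested. Of the 22, 0 had an unadjusted p under 0.05 with edgeR, and 0 were called with DESeq2. Over all 17011 genes, 2971 had an unadjusted p under 0.05 with edgeR, and DESeq2 called 760 higher and 746 lower. The 21 tested motile genes had a median of 0.03, and 2 had an unadjusted p under 0.05 and were called with DESeq2 (Dnah11 and Rsph9). With passage as a block, 3 members were called in place of 1 (13.2% of all genes under that fit). The added genes were Dnah11, an outer-arm heavy chain (0.64, edgeR adjusted p = 0.0122), and Rsph9 (-0.63, adjusted p = 0.0242). Dnah11 was at 0.635, 0.507 and 0.498 FPKM in untreated cells and 0.877, 0.840 and 0.828 in Rspo1 tdTomato-positive cells, and the libraries did not overlap. With the GC and length offset added to the block, 6 were called (16.4% of all genes), Rfx5, Ift43 and Ift80 among them, each higher.

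Rspo1 tdTomato-negative cells differed from untreated cells in 10 of 54 members (18.5%), beside 21.9% of all genes tested (8% higher and 13.9% lower). Lower were 8 members: the IFT-B genes Ift74, Ift80 and Ift81, the transcription factors Rfx3 and Rfx7, Spag9, Dnah7b and Ift88os. Higher were Ift27 and Spag5. The members' median log2 difference was 0.00, with 27 of 54 positive. The median was 0.13 for the IFT and BBS genes, -0.04 for the motile-axoneme genes and -0.17 for the RFX genes. In bulk libraries, fewer cells of a type and less RNA per cell cannot be told apart.

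Ift74 and Ift81 encode partners that together bind tubulin as cargo. Ift74 (chr4:94614491-94693229, plus strand, GRCm38 in GENCODE vM21, as for the genes below) was at 6.39, 6.79 and 5.39 FPKM in untreated cells, 4.00, 3.52 and 1.95 in Rspo1 tdTomato-negative cells and 7.43, 6.77 and 7.01 in Rspo1 tdTomato-positive cells. All 3 Rspo1 tdTomato-negative libraries lay below the other 6. Its log2 difference from untreated cells was -1.01 (SE 0.24, edgeR adjusted p = 0.0144), called in 6 of 6 fits without 1 library. Ift81 (chr5:122550204-122614518) was at 6.71, 7.08 and 6.32, then 4.63, 5.04 and 2.88, then 8.18, 8.91 and 6.31 FPKM, again with the Rspo1 tdTomato-negative libraries lowest. It fell by 0.72 on the log2 scale (SE 0.21, edgeR adjusted p = 0.0351), a call kept in 1 of 6 such fits and lost without any untreated library or the Rspo1 tdTomato-negative library of passage 5 or 10 (adjusted p up to 0.125). Ift80 (chr3:68892499-69004570), an IFT-B subunit linked to skeletal ciliopathy, was at 2.41, 3.31 and 3.15, then 1.53, 2.24 and 1.43, then 3.44, 4.11 and 3.88 FPKM. It fell by 0.81 (SE 0.20, edgeR adjusted p = 0.0194), and the call was lost without the Rspo1 tdTomato-negative library of passage 5 or of passage 10 (adjusted p up to 0.0787).

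Ift27 (chr15:78159463-78174107) went the other way. This small GTPase-like IFT-B subunit, needed for BBSome exit from cilia, was at 7.78, 13.0 and 10.9 FPKM in untreated, 20.0, 17.2 and 19.8 in Rspo1 tdTomato-negative and 13.0, 13.8 and 13.6 in Rspo1 tdTomato-positive cells. The Rspo1 tdTomato-negative libraries were above all others, and the log2 difference from untreated cells was 0.81 (SE 0.18, edgeR adjusted p = 0.0126), called in 6 of 6 fits without 1 library. The ratio of Ift74 to Ift27 FPKM was 0.821, 0.522 and 0.495 in untreated cells, 0.200, 0.205 and 0.0985 in Rspo1 tdTomato-negative cells and 0.571, 0.491 and 0.514 in Rspo1 tdTomato-positive cells. The pair was chosen after its values were seen, so the ratio only restates the 2 differences. Ift74 has 41.6% GC and Ift27 55.8%. Over all genes the median log2 difference in this comparison was -0.645 at 40 to 42% GC and 0.224 at 54 to 56%. With the passage block and the GC and length offset, Ift27 was no longer called (0.41, edgeR adjusted p = 0.071). Whether subunits of 1 complex changed unequally beyond this was not tested.

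Rfx3 (chr19:27761721-28011166), a central regulator of ciliary genes, was at 0.774, 1.16 and 1.01 FPKM in untreated cells, 0.370, 0.445 and 0.203 in Rspo1 tdTomato-negative cells and 1.12, 0.939 and 0.787 in Rspo1 tdTomato-positive cells. The Rspo1 tdTomato-negative libraries were the 3 lowest, with a log2 difference of -1.57 from untreated cells (SE 0.29, edgeR adjusted p = 0.00523). Rfx7 (chr9:72532240-72622937), an RFX factor best known outside cilia, was at 6.17, 6.02 and 5.38, then 2.94, 3.36 and 2.05, then 7.09, 6.11 and 6.36 FPKM. It fell by 1.11 (SE 0.17, edgeR adjusted p = 0.00233). Spag9 (chr11:93996091-94126085), a scaffold of JNK signalling and motor transport, was at 11.6, 10.2 and 14.0, then 5.36, 6.96 and 4.73, then 11.1, 9.57 and 12.3 FPKM and fell by 1.11 (SE 0.18, edgeR adjusted p = 0.00301). These 3 calls were kept in 6 of 6 fits without 1 library. Genes on the other strand overlap 6.63% of the Rfx7 exon bases.

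The remaining calls rested on fewer libraries. Dnah7b was at 0.851, 1.05 and 1.62 FPKM in untreated, 0.567, 0.881 and 0.485 in Rspo1 tdTomato-negative and 1.23, 1.36 and 1.56 in Rspo1 tdTomato-positive cells. Untreated and Rspo1 tdTomato-negative libraries overlapped, and the difference of -0.90 (SE 0.28, edgeR adjusted p = 0.0438) was called in 2 of 6 fits without 1 library, with an adjusted p up to 0.149. It was lost without the Rspo1 tdTomato-negative library of passage 5 or 10 or the untreated library of passage 6 or 10. Ift88os had 25, 48 and 39 counts, then 11, 13 and 10, then 38, 44 and 47. Its fall by 1.49 (SE 0.41, edgeR adjusted p = 0.0266) was lost without the same 4 libraries in turn (adjusted p up to 0.0968), and without a stated strand setting its reads cannot be told apart from those of Ift88 where both overlap. Spag5 rose by 1.70 (SE 0.46, edgeR adjusted p = 0.0244), lost without the Rspo1 tdTomato-negative library of passage 6 or 10 or the untreated library of passage 5 or 10 (adjusted p up to 0.0694).

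**Figure D2:**
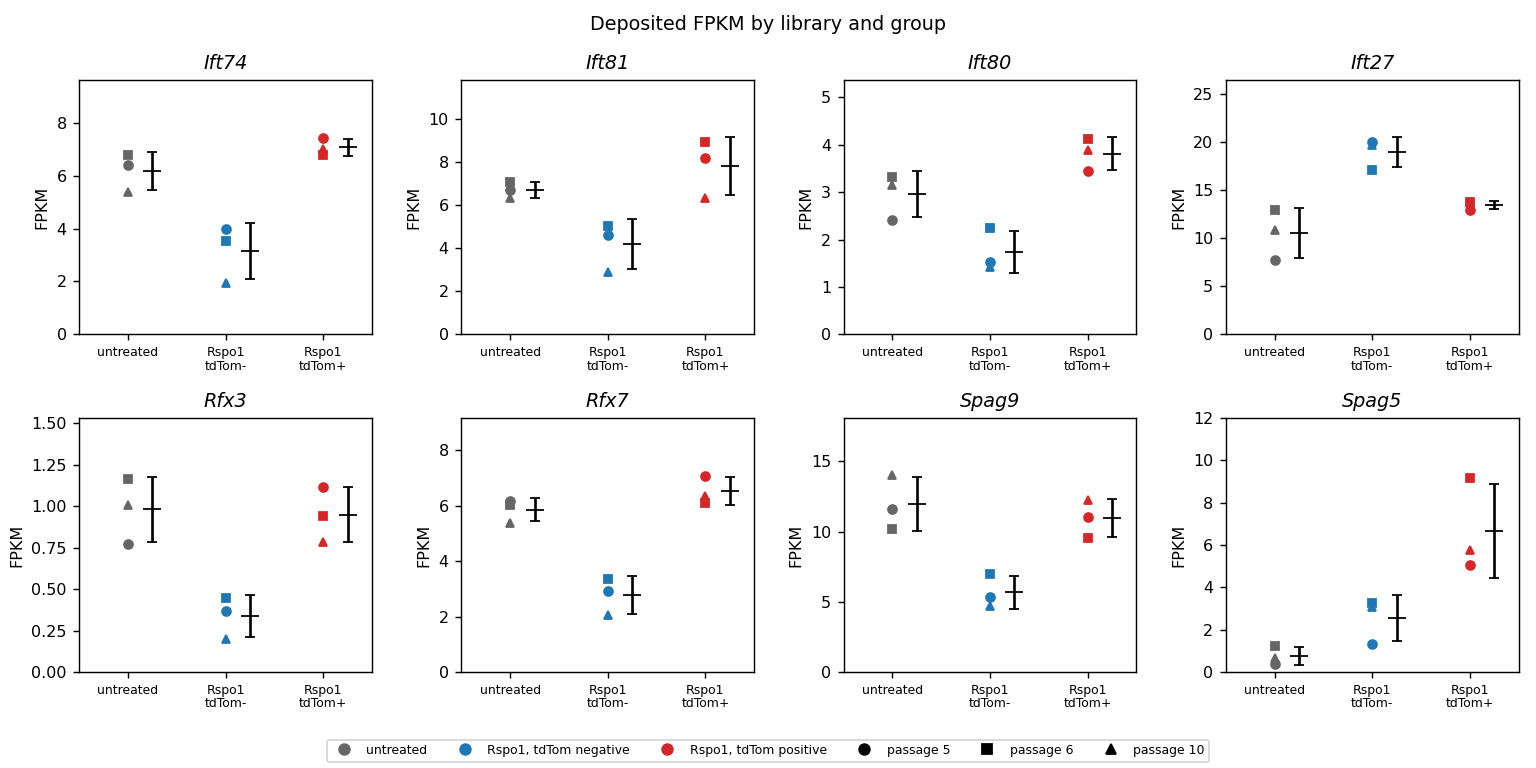
Deposited FPKM of 8 members in each of the 9 libraries by group, with marker shapes for passage and bars for mean ± SD (n = 3). The Rspo1 tdTomato-negative libraries are the 3 lowest for Ift74, Ift81, Ift80, Rfx3, Rfx7 and Spag9 and the 3 highest for Ift27, and Spag5 is highest in Rspo1 tdTomato-positive cells.

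The direction of these differences followed the base composition of the transcripts. Over the 17001 tested genes with a GC value, Spearman's rank correlation between transcript GC content and the log2 difference of Rspo1 tdTomato-negative from untreated cells was 0.50. Over the 54 tested members it was 0.59, and over the 22 IFT and BBS genes 0.80. With transcript length in place of GC content, the correlation was -0.31 over all genes, -0.23 over the members and -0.01 over the IFT and BBS genes. These are correlations across genes of the same 6 libraries, given as descriptions. Ift80 (40.9% GC), Ift74 (41.6%) and Ift81 (43.2%) are AT-rich and were lower, while Ift27 (55.8%) is GC-rich and was higher. Of 19 members below 45% GC, 8 were lower and 0 higher, with a median log2 difference of -0.77, beside -0.58 over all 4160 genes in that range. Of 26 members at 50% GC or more, 0 were lower and 2 higher, with a median of 0.27 beside 0.20 over all genes there. Over all GC contents 13.9% of genes were called lower and 8% higher. The share of all genes called within each GC range was not counted, so the members' calls cannot be set against it. Between Rspo1 tdTomato-positive and untreated cells the correlation over members was -0.07 for GC content and 0.25 for length.

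A fit with an offset for GC content and transcript length, together with the passage block, gave these members other values. Ift74 remained lower by 0.75 (edgeR adjusted p = 0.00836), Ift81 by 0.52 (0.023), Rfx3 by 0.62 (0.0449), Rfx7 by 0.45 (0.0124) and Spag9 by 0.49 (0.0195). Ift80 moved to 0.03 (edgeR adjusted p = 0.867), Dnah7b to -0.04 (0.9) and Ift27 to 0.41 (0.071), so these 3 calls ended. That fit called 13 members (23.3% of all genes), 7 of the 10 above among them. It also called Spag7 (-0.61, edgeR adjusted p = 0.00282), Dnaaf5 (-0.53, 0.00574) and Rfx1 (-0.45, 0.0216) lower. Those 3 genes were called neither in the fit without block and offset nor with the block alone. The offset alone called 5 members (9.46% of all genes), of which Ift74 was shared with the 10. With the passage block alone, 19 members were called in place of 10 (35.5% of all genes), among them all 10. The members added by the block were Ift43, Ift22, Ift140, Ift122 and Dnah11, which were higher, and Ift88, Spag1, Dnah14 and Rsph1, which were lower. With the offset added, 6 of these 9 calls ended: Ift43, Ift22, Ift122, Ift88, Spag1 and Dnah14. Dnah14 changed sign there, to 0.43 (edgeR adjusted p = 0.141), and Dnah11, Ift140 and Rsph1 were still called.

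**Figure D3:**
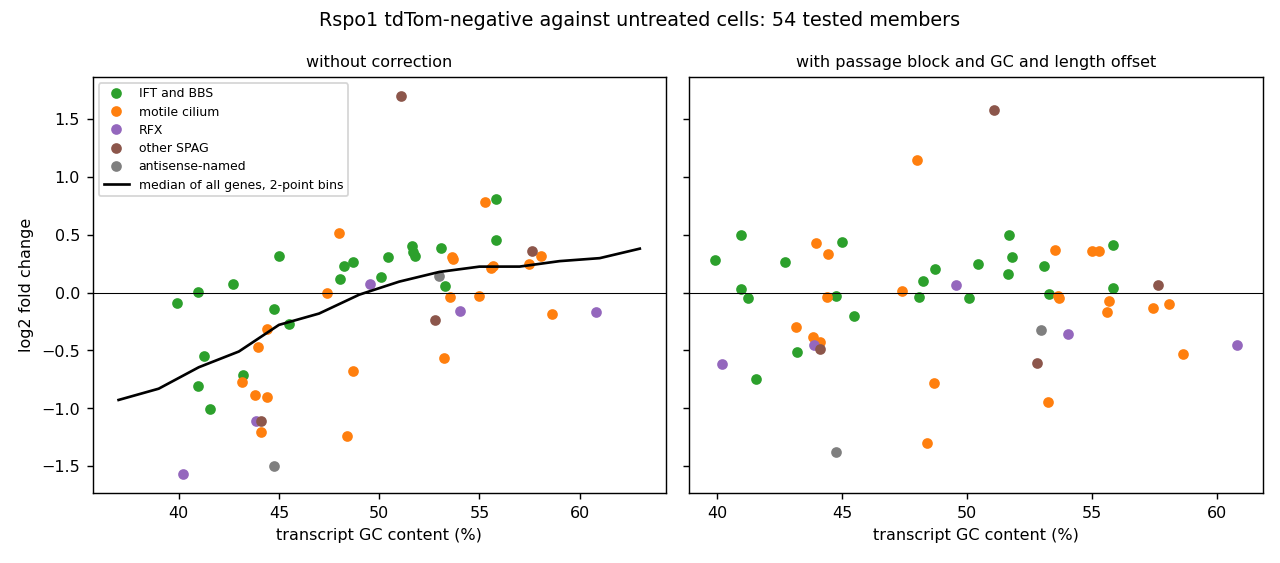
Log2 difference of Rspo1 tdTomato-negative from untreated cells against transcript GC content for the 54 tested members, without correction (left, with the median of all genes in bins of GC) and with the passage block and the GC and length offset (right). On the left the members follow the rise of the all-gene line, and on the right the IFT and BBS points lie between -0.75 and 0.50.

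The 2 Rspo1 populations, sorted from the same organoids, differed in 15 of 54 members (27.8%), beside 24.3% of all genes tested (14.6% higher and 9.78% lower). In tdTomato-positive cells 13 were higher and 2 lower. The IFT-B genes Ift74, Ift80, Ift81, Ift88 and Ift57 were higher and Ift22 was lower, so 6 of 11 IFT-B members were called. Of the 3 IFT-A and 8 BBS members 0 were called with edgeR or DESeq2. In edgeR 1 had an unadjusted p under 0.05, beside 6416 of all 17011 genes. The difference between complexes was not tested, and the counts moved with the fit. The block alone gave 5 higher and 3 lower IFT-B members, beside 3660 higher and 2964 lower of all 17011 genes. Block with offset gave 4 higher and 0 lower, beside 23.7% of all genes called. In that fit Ift43 was higher (0.36, edgeR adjusted p = 0.046) and Ift140 lower (-0.36, 0.0276). This comparison shares its Rspo1 tdTomato-negative libraries with the one above, and its values are not independent of it. The log2 differences were 1.20 for Ift74 (SE 0.24, edgeR adjusted p = 0.00695), 1.17 for Ift80 (SE 0.21, 0.00442), 1.51 for Rfx3 (SE 0.29, 0.0062), 1.26 for Rfx7 (SE 0.17, 0.00196) and 0.98 for Spag9 (SE 0.18, 0.00528), and these 5 were called in every fit without 1 library.

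Ift88, the IFT-B subunit mutated in the polycystic-kidney orpk mouse, was at 2.96, 3.51 and 4.02 FPKM in untreated, 2.32, 3.01 and 2.03 in Rspo1 tdTomato-negative and 3.85, 4.84 and 4.03 in Rspo1 tdTomato-positive cells. The 2 Rspo1 populations did not overlap, and the difference was 0.82 (SE 0.20, edgeR adjusted p = 0.0147). It was lost without the tdTomato-negative library of passage 5 or 10 or the tdTomato-positive library of passage 6 (adjusted p up to 0.0662). Ift81 differed by 0.93 (SE 0.21, edgeR adjusted p = 0.012), lost without the tdTomato-positive library of passage 6 (0.061). Ift57, an IFT-B subunit on the outer part of the complex, was at 7.47, 7.69 and 6.18 in tdTomato-negative and 8.96, 10.8 and 9.94 FPKM in tdTomato-positive cells, without overlap. The untreated libraries, at 7.19, 9.36 and 8.51 FPKM, overlapped both. Ift22, a small GTPase of IFT-B, was at 14.2, 13.1 and 11.8 in tdTomato-negative, 8.63, 9.70 and 7.66 in tdTomato-positive and 8.92, 11.9 and 8.05 FPKM in untreated cells. The differences of 0.51 for Ift57 (edgeR adjusted p = 0.0389) and -0.56 for Ift22 (0.0332) were lost whichever of the 6 libraries was left out (up to 0.155 and 0.11).

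Among motile-axoneme members Rsph9 was lower and Dnah7b, Dnah14 and the arm-assembly gene Spag1 were higher in tdTomato-positive cells. Rsph9 (chr17:46122035-46144216) was at 17.4, 31.8 and 20.1 FPKM in untreated, 25.1, 30.2 and 26.9 in tdTomato-negative and 13.1, 14.9 and 15.5 in tdTomato-positive cells, so the tdTomato-positive libraries were the 3 lowest. The difference between the Rspo1 populations was -0.89 (SE 0.22, edgeR adjusted p = 0.0167), lost without the tdTomato-positive library of passage 5 (0.0659). Dnah14, a dynein heavy chain, was at 0.455, 0.619 and 0.677 FPKM in untreated, 0.405, 0.384 and 0.510 in tdTomato-negative and 0.618, 0.683 and 0.783 FPKM in tdTomato-positive cells and differed by 0.71 (SE 0.22, edgeR adjusted p = 0.0369). Under the GC and length offset that value turned to -0.22, and it was called in 1 of 6 fits without 1 library. Spag1 was at 1.12, 0.809 and 1.67 FPKM in untreated, 0.705, 0.748 and 0.714 in tdTomato-negative and 1.18, 1.49 and 1.09 in tdTomato-positive cells (0.83, SE 0.27, edgeR adjusted p = 0.0481) and was called in 0 of 6 such fits (up to 0.165). Dnah7b differed by 1.13 (edgeR adjusted p = 0.0172, up to 0.0673 without the tdTomato-negative library of passage 5 or 10 or the tdTomato-positive library of passage 10). Spag5 differed by 1.41 (edgeR adjusted p = 0.0395) and was called in 1 of 6 such fits (up to 0.138), and Ift88os by 1.59 (0.019) in 2 of 6 (up to 0.076).

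With the passage block and the GC and length offset, 14 members were called (23.7% of all genes), and 7 of the 15 calls were shared: Ift74 (0.94, edgeR adjusted p = 0.00354), Ift81 (0.66, 0.00832), Ift57 (0.40, 0.0321), Ift80 (0.32, 0.0492), Rfx7 (0.56, 0.00521), Spag5 and Ift88os. Rfx3 (0.56, edgeR adjusted p = 0.0612), Spag9 (0.32, 0.0909), Ift88 (0.30, 0.166) and Rsph9 (-0.35, 0.109) were no longer called. Besides Ift43 and Ift140, given above, the members called there and not among the 15 were all higher in tdTomato-positive cells. They were Spag7 (0.70, edgeR adjusted p = 0.00194), Dnaaf5 (0.48, 0.00952), Rfx1 (0.52, 0.0127), Rsph1 (0.51, 0.0443) and Rfx5 (0.40, 0.0499). The offset alone called 4 members (8.27% of all genes), of which Ift74 and Rfx7 were shared. Proliferation genes also moved here: 14 of 20 were higher in tdTomato-positive cells without block and offset, beside 14.6% of all genes, with a median log2 difference of 1.71. The part of cell division in the members' differences was not tested.

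**Figure D4:**
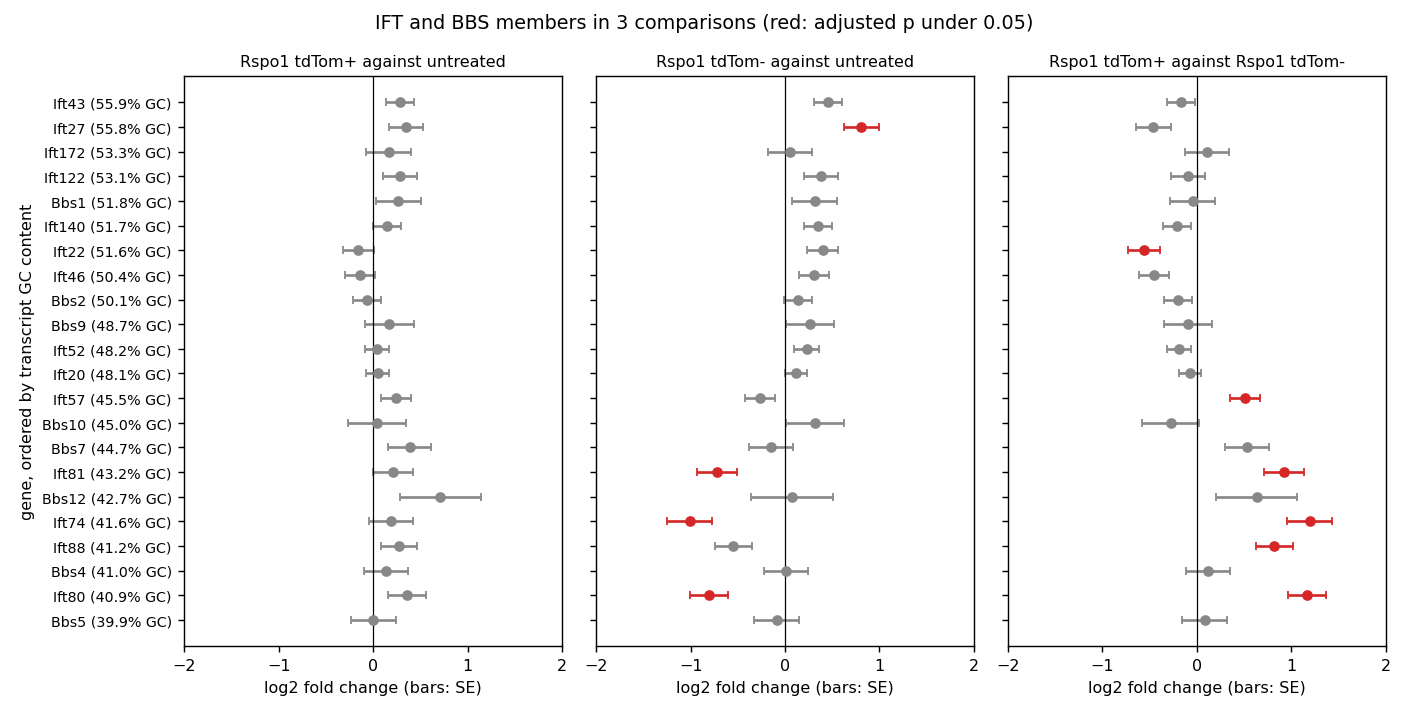
Log2 differences with standard errors for the 22 IFT and BBS genes in the 3 group comparisons, ordered by transcript GC content from bottom to top, with edgeR calls in red. No gene is called between Rspo1 tdTomato-positive and untreated cells, and the called genes of the other comparisons are the AT-rich IFT-B genes near the bottom plus Ift57, Ift22 and Ift27.

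The authors' deposited tables listed 45 of the members. In the authors' deposited table for Rspo1 tdTomato-positive against untreated cells 3 of them were higher and 1 lower at an adjusted p under 0.05, where 14.7% of the genes with an adjusted p in that table were called. For Rspo1 tdTomato-negative against untreated cells the authors' deposited table had 2 higher and 7 lower (29.3% of its genes). For the 2 Rspo1 populations the authors' deposited table had 14 higher and 4 lower (45.8% of its genes).

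Genes of the same machinery outside the name rule were read against the 21.9% of all genes called between Rspo1 tdTomato-negative and untreated cells. Of 12 other IFT subunits, 0 were called there with edgeR or DESeq2. In edgeR 0 had an unadjusted p under 0.05, beside 6157 of all 17011 genes. With the block 2 were lower and 0 higher, beside 35.5% of all genes called. With block and offset 0 were lower and 3 higher, beside 23.3% of all genes. Of 8 other BBS genes, Lztfl1, a BBSome regulator, was lower by 1.26 (edgeR adjusted p = 0.00581), and with block and offset it was at -0.27 (0.222). Among 13 ciliary motor genes, Kif3a, the kinesin-II motor, was lower in Rspo1 tdTomato-negative than in untreated cells by 0.83 (SE 0.13, edgeR adjusted p = 0.00261) and Dync2h1, the dynein-2 heavy chain, by 1.37 (SE 0.27, 0.00635), while Wdr34 was higher, so 2 were lower and 1 higher. Of 24 transition-zone genes 4 were lower, among them Cep290 (-1.52, edgeR adjusted p = 0.00217) and Rpgr (-1.20, 0.00702), and 2 were higher. With the block and the GC and length offset, Kif3a was at -0.86 (edgeR adjusted p = 0.00128), Rpgr at -0.82 (0.0102), Dync2h1 at -0.48 (0.0192) and Cep290 at -0.50 (0.0434), the last 2 much smaller than without the offset. That fit left 0 motor and 0 transition-zone genes higher and 3 of each lower, so the call of Wdr34 ended (0.0125, edgeR adjusted p = 0.942), as did those of the higher transition-zone genes B9d1 and B9d2. In the comparison of the 2 Rspo1 populations Cep290 was higher in tdTomato-positive cells by 2.15 (edgeR adjusted p = 0.0017), Kif3a by 0.82 (0.00302) and Dync2h1 by 1.67 (0.00307). These 3 values are without the GC and length offset. Over all 17001 genes with a GC value, transcript GC content and the difference between these populations had a Spearman correlation of -0.50. Of 15 tested ciliary membrane and cystic-disease genes, 2 were higher and 2 lower in Rspo1 tdTomato-negative than in untreated cells, and 2 higher and 1 lower with block and offset. The higher were Evc (1.04, edgeR adjusted p = 0.00812) and the Hedgehog transducer Smo (0.49, 0.0235), and the lower were the cystic-disease channel gene Pkd2 (-0.87, 0.0144) and the ciliary GTPase gene Arl13b (-0.62, 0.0337).

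Basal-body genes differed between Rspo1 tdTomato-positive and untreated cells in 4 of 20 cases, beside 5.21% of all genes, and these 4 were higher. The 4 were Tpx2 (3.01, edgeR adjusted p = 0.00533), Nek2 (2.52, 0.00732), Aurka (2.29, 0.0286) and Kif24 (1.05, 0.0248). With the block 8 were higher and 1 lower, beside 13.2% of all genes called. With block and offset 10 were higher and 1, Rab11a, was lower, beside 16.4% of all genes. Tpx2, Nek2 and Aurka act at mitotic spindles and centrosomes as well as at basal bodies, and Tpx2 is also in the proliferation list. Of 41 tested other motile-axoneme genes, 1 was higher and 0 lower in that comparison: Mns1, a microtubule inner protein (1.17, edgeR adjusted p = 0.0186). The median log2 difference of the 41 was -0.13. With the block 1 was higher and 3 lower, beside 13.2% of all genes called. With block and offset 1 was again higher and 3 lower, beside 16.4% of all genes.

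Between passages, with group in the fit, few members were called. From passage 5 to passage 6, 3 of 54 members (5.56%) were higher and 0 lower (2.49% of all genes tested were called, 1.16% higher and 1.33% lower). Of the 54, 44 had a positive difference there, with a median of 0.22 on the log2 scale, beside 0.002 over all genes. An unadjusted edgeR p under 0.05 was found for 16 of the 54, beside 2621 of all 17011 genes. From passage 5 to passage 10, 2 were higher and 1 lower (9.07%, 4.57% higher and 4.5% lower), and from passage 6 to passage 10, 0 were higher and 1 lower (8.45%, 4.4% higher and 4.05% lower). Each passage is 1 set of cultures of the same animal, so passage number and culture date or handling cannot be told apart. The 3 libraries of a passage are its 3 groups, and the 2 Rspo1 groups were sorted from the same organoids. No passage was repeated. The p-values between passages thus measure how unevenly the groups changed, and not the spread between repeated cultures of a passage. No passage call was kept in every fit without 1 library.

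Dnaaf3 (chr7:4522933-4532453), an assembly factor for dynein arms, was at 1.38, 1.85 and 1.97 FPKM at passage 5 in untreated, Rspo1 tdTomato-negative and Rspo1 tdTomato-positive cells. It was at 3.10, 3.77 and 4.25 at passage 6 and at 3.08, 4.03 and 3.15 at passage 10. The passage 5 libraries were the 3 lowest. The log2 difference was 1.11 from passage 5 to 6 (SE 0.17, edgeR adjusted p = 0.00794) and 1.01 from passage 5 to 10 (SE 0.17, 0.00576). The first was lost without the untreated or Rspo1 tdTomato-negative library of passage 5 or the Rspo1 tdTomato-positive library of passage 6 (up to 0.0713), and the second without the Rspo1 tdTomato-negative library of passage 5 (0.053). Opposite-strand transcripts overlap 16.5% of its exon bases.

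The BBS genes Bbs9 and Bbs12 moved in opposite directions. Bbs9, a BBSome scaffold subunit, was at 2.17, 2.71 and 2.53 FPKM at passage 5, 3.39, 4.01 and 3.26 at passage 6 and 3.16, 4.02 and 4.06 at passage 10, in the same order of groups. It was higher at passage 10 than at passage 5 by 0.63 (SE 0.15, edgeR adjusted p = 0.0238), lost whichever of the 6 libraries was left out (up to 0.132). Bbs12 was at 0.936, 1.04 and 1.30 at passage 5, 0.675, 0.777 and 1.12 at passage 6 and 0.384, 0.329 and 0.848 FPKM at passage 10. It fell by 1.10 from passage 5 to 10 (SE 0.26, edgeR adjusted p = 0.0266), lost without any of these 6 libraries but the Rspo1 tdTomato-positive one of passage 10 (up to 0.15). In both genes the change had the same sign in all 3 groups and the libraries of passages 5 and 10 did not overlap.

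Ift172, the largest IFT-B subunit, was at 4.74, 4.52 and 5.93 FPKM at passage 5, 6.81, 8.55 and 7.55 at passage 6 and 6.74, 6.35 and 7.06 at passage 10. It was higher at passage 6 than at passage 5 by 0.61 (SE 0.14, edgeR adjusted p = 0.0399) and was called in 1 of 6 fits without 1 library (up to 0.256), the one without the untreated library of passage 6. Rsph1, a radial spoke head protein, was at 5.17, 3.68 and 3.50 FPKM at passage 5, 7.34, 4.98 and 4.92 at passage 6 and 3.89, 2.71 and 2.96 at passage 10. It fell by 0.82 from passage 6 to 10 (SE 0.17, edgeR adjusted p = 0.0136), lost without any of the passage 10 libraries (up to 0.0709). Spag5 was higher at passage 6 than at passage 5 by 1.24 (SE 0.22, edgeR adjusted p = 0.0138), and was lost without the untreated or Rspo1 tdTomato-negative library of passage 5 or the Rspo1 tdTomato-positive one of passage 6 (up to 0.121). Of the 20 proliferation genes, 15 were higher there too, beside 1.16% of all genes tested.

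Foxj1, the regulator of motile-cilium genes named above, fell at passage 10. It was at 43.2, 35.2 and 23.4 FPKM at passage 5, 68.2, 43.9 and 33.4 at passage 6 and 18.0, 15.8 and 8.66 at passage 10, in untreated, Rspo1 tdTomato-negative and Rspo1 tdTomato-positive cells. The passage 10 libraries were the 3 lowest, and the order of the groups was the same at each passage. The log2 difference was -1.25 from passage 5 to 10 (SE 0.12, edgeR adjusted p = 0.000394) and -1.77 from passage 6 to 10 (SE 0.13, 0.000386), both called in 6 of 6 fits without 1 library. Between Rspo1 tdTomato-positive and untreated cells it differed by -0.99 with an edgeR adjusted p of 0.396, and with passage as a block by -0.99 with 0.000301. Among 41 other motile-axoneme genes, 1 was higher and 4 lower from passage 6 to 10, beside 4.4% higher and 4.05% lower over all genes. Ccdc103 (-1.09, edgeR adjusted p = 0.0104) and Cfap52 (-1.40, 0.0127) were among the lower, and the median log2 difference was -0.24. From passage 5 to 10, 0 of the 41 were higher and 1 lower, with a median of 0.27. Over all genes 4.57% were higher and 4.5% lower there. Of the 21 tested motile-axoneme members, 19 had a positive difference from passage 5 to 10, with 1 called higher and 0 lower.

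**Figure D5:**
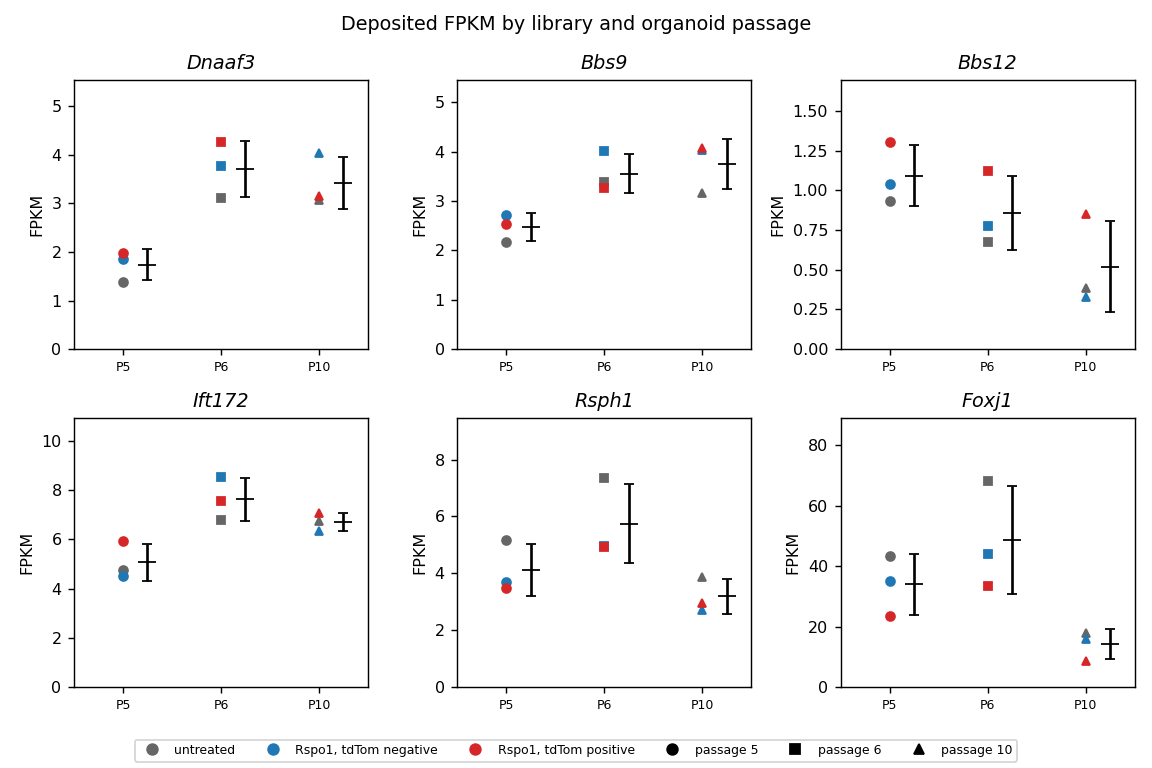
Deposited FPKM of 5 members and Foxj1 by organoid passage, with colours for group, marker shapes for passage and bars for mean ± SD over the 3 groups (n = 3). Dnaaf3 is lowest at passage 5 in all groups, Bbs12 and Foxj1 are lower at passage 10, and Rsph1 is lower at passage 10 than at passage 6.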

How the data were processed

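RNA of sorted bile duct organoid cells was measured in 9 libraries, each from 100 ng total RNA, with 75 bp single-end sequencing, per the labels. Trimmomatic 0.35, FastQC 0.11.2, STAR 2.5.1b, featureCounts, DESeq2 and the build GRCm38 are named in the submitters' processing notes. The strand setting and annotation are not given in the sources used here. The authors deposited raw counts and FPKM per gene, per the file headers. The deposited FPKM scale of a library followed its median-of-ratios size factor and not its total. The authors also deposited comparison tables with log2 fold changes and their errors, p-values and adjusted p-values, a mean signal per gene and a test score, per the file headers, and their adjusted p-values and log2 fold changes were copied.

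Counts were tested in R 4.3.3 with edgeR 4.0.16 (quasi-likelihood F-test, TMM, filterByExpr with minimum count 10 and total 15, Benjamini-Hochberg over 17011 genes, threshold 0.05). Group comparisons used group alone over all 9 libraries, and passage comparisons used group and passage. SEs are the log2 fold change divided by the square root of F. CPM values use TMM sizes. The GC and length offset is a spline fitted per library on log2 CPM over GENCODE vM21 transcripts. DESeq2 1.42.0, RLE and upper-quartile scaling, no filter, the offset, the block and fits without 1 library were alternatives. The test code was run on simulated counts first. Passage numbers pair libraries across groups: deviations from group means correlated at 0.123 to 0.573 in 9 same-passage pairs and at -0.476 to 0.0826 in 18 others.

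Libraries are grouped by their labels. Values in each library are given for members called in a group comparison (at most 8 per direction and above a mean log2 CPM of 0), at most 4 per passage comparison, the 3 highest per subclass and tested RFX genes. Members of overlapping genes and near-identical copies are uncertain. From each pathway list at most 4 genes are named by adjusted p, plus Foxj1, Mki67, Krt19, Epcam, Alb and Axin2. Members and lists were chosen with earlier results of these data known. Python 3.11.15 made tables and figures with matplotlib 3.10.9. List genes without values here (Adgre1, Cdc20b, Dcn, Gmnc, Kdr, Mcidas, Pdgfrb, Sntn and others) are not analysed here.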

Additional observations from a re-analysis of the deposited data

How the results depend on the processing

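Of 441 re-computed values of the 33 called member differences, 310 kept their direction and call, 127 kept the direction and lost the call, and 4 changed sign. The 4 were Ift80 in Rspo1 tdTomato-negative against untreated cells (0.0252 with the GC and length offset, 0.0301 with the replicate block added) and Dnah14 between the Rspo1 populations (-0.22 and -0.21); the cause was not tested. For Rspo1 tdTomato-positive against untreated cells, 1 call became 2 with upper-quartile scaling or no filter, 3 with DESeq2 or the replicate block and 6 with block and offset, and stayed at 1 without any 1 library. Over all 17011 genes, 523 higher and 363 lower became 760 and 746 with DESeq2. They became 1095 and 1152 with the block, and 1287 and 1496 with block and offset. For Rspo1 tdTomato-negative against untreated cells, 10 calls became 5 with the offset, 6 with only the 6 libraries, 19 with the block and 5 to 12 without 1 library. Over all 17011 genes, 1361 higher and 2363 lower became 588 and 1022 with the offset and 628 and 1606 with only the 6 libraries. They became 2643 and 3396 with the block, and 646 to 1510 and 1269 to 2315 without 1 library. Between the Rspo1 populations, 15 calls became 4 with the offset and 7 to 13 without 1 library. Over all 17011 genes, 2477 higher and 1664 lower became 888 and 519 with the offset, and 1409 to 2355 and 604 to 1768 without 1 library. From passage 5 to 6, 3 calls became 6 without the filter, 5 with DESeq2 and 0 to 3 without 1 library. From passage 5 to 10, 3 became 7 without the filter or with the offset, 5 with DESeq2 and 0 to 2 without 1 library. Over all genes, 777 higher and 766 lower became 1357 and 1427 of 31128 without the filter and 1008 and 1122 with the offset. They became 945 and 1206 with DESeq2, and 150 to 311 and 232 to 364 without 1 library. From passage 6 to 10, 1 became 2 with the offset and 0 to 2 without 1 library. Over all 17011 genes, 749 higher and 689 lower became 980 and 991 with the offset, and 307 to 790 and 239 to 714 without 1 library. The block ended no call of the fit without it. Depth limits members with few counts, such as Dnah5 and Dnah9, which were not tested.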
